A study of Mus musculus with 12 samples.

Results

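The reporter contrast of thymic endothelium was set against that of thymic epithelium, using all 12 of the 12 libraries of the series. Poly(A) RNA was measured by RNA-seq in stromal cells that had been sorted from the thymus of C57 BL6 mice carrying a KitL-tomato reporter, in which red fluorescence marks cells that express Kit ligand. All groups came from this reporter strain and were Lin- and Dapi-. Vascular endothelial cells (VEC) were EpCAM- CD31+ and were split into td-tomato+ and td-tomato- cells, with 3 libraries of each. Cortical thymic epithelial cells (cTEC) were EpCAM+ CD31- UEA1- Ly51+ and td-tomato+, and medullary thymic epithelial cells (mTEC) were EpCAM+ CD31- UEA1+ Ly51- and td-tomato-, again with 3 libraries of each. In endothelium the groups therefore differed by the reporter gate. In epithelium the tomato gate went along with the gate for cortex or medulla, and their effects cannot be told apart, so "the TEC contrast" below is that of tomato+ cTEC over tomato- mTEC. The labels give neither age nor sex, and do not say whether the replicates came from separate animals, so each p-value reflects no more than the spread from library to library, which may be technical. Since these are bulk samples, a lower level can mean fewer cells with a transcript or less of it per cell, and these cannot be told apart.

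Kit ligand is a membrane-anchored and shed growth factor that binds the receptor tyrosine kinase Kit, and the thymus needs it to keep its earliest T-cell progenitors. Those progenitors leave the blood through vessels near the border of cortex and medulla, move into the cortex, and there meet further signals such as CXCL12, IL-7 and Notch ligands from cortical epithelium. The medulla later receives the maturing thymocytes through CCL21 and CCL19, and its epithelium displays self-antigens to them.

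Total counts were 8388869 to 11807130 per library. A count was found for 13406 to 14346 genes in VEC libraries, 15086 to 15605 in cTEC libraries and 16708 to 17015 in mTEC libraries. Of 23306 gene symbols, 14792 were tested. The 6 endothelial markers together reached 7289 to 9562 CPM (counts relative to library size, scaled by the TMM method) in VEC libraries, and the 6 epithelial markers 0.223 to 1.29 CPM there. In tomato+ cTEC replicate 2 the endothelial markers reached 303 CPM, 3.97% of the tomato+ VEC mean, against 15.3 and 2.08 CPM in the other tomato+ cTEC libraries and 13.9 to 45.9 CPM in tomato- mTEC. Epithelial markers reached 1573 to 1895 CPM in tomato+ cTEC and 2313 to 2687 CPM in tomato- mTEC. Macrophage and dendritic cell markers reached 342 to 402 CPM in tomato- mTEC against 9.7 to 157 CPM in tomato+ cTEC, and thymocyte markers 14.6 to 31.3 against 52.1 to 85.4 CPM. In the same order, the 1 tested B cell marker was at 7.21 to 35.3 against 0 to 2.51 CPM. Erythroid markers were at 18 to 36.9 against 0 to 2.16 CPM, and platelet markers at 3.86 to 70.7 against 0.196 to 1.38 CPM. Platelet markers reached 3.36 to 185 CPM in tomato- VEC and 3.32 to 18.3 CPM in tomato+ VEC. The part of these other cells in the results below was not tested, except where a level is given beside a gene.

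The promoter stretches of 5 genes on which the comparison turns are shown first, as the sequence just before the gene start. Kitl, Cxcl12 and Rgcc were higher in the tomato+ cells of both lineages, while Bmp4 and Ctsl were lower in tomato+ VEC and higher in tomato+ cTEC. The stretches are the 250 bases before the RefSeq start, 5′ to 3′ on the gene's own strand, from build GRCm38.p6: Kitl on the plus strand at chr10:100015571-100015820, Cxcl12 on the plus strand at chr6:117168285-117168534, Rgcc on the minus strand at chr14:79301636-79301885, Bmp4 on the minus strand at chr14:46390670-46390919 and Ctsl on the minus strand at chr13:64370521-64370770. Capitals mark the GC box motif GGGCGG and, in the Kitl stretch, the TATA motif, whose letters searched were TATAAA. Both were read on either strand, and neighbouring matches may run together.
Kitl: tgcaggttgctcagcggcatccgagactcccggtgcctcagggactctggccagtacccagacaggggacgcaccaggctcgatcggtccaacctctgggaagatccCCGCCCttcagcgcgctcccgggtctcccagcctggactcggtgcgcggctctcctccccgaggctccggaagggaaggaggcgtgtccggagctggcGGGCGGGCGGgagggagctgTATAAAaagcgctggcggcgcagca
Cxcl12: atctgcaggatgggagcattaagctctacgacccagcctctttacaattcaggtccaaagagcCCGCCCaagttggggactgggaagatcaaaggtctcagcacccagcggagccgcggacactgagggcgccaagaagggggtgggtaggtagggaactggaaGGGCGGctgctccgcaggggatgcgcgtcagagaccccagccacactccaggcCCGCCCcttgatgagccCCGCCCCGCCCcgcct
Rgcc: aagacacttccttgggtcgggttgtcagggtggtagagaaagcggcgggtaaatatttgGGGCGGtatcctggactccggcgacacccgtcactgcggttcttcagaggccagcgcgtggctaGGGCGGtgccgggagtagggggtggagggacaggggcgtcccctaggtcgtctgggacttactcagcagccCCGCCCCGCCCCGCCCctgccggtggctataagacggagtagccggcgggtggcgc
Bmp4: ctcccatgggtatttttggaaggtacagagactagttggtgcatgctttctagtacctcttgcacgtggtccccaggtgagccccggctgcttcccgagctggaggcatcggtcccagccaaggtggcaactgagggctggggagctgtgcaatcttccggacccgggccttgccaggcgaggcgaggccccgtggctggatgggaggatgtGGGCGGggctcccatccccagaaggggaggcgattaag
Ctsl: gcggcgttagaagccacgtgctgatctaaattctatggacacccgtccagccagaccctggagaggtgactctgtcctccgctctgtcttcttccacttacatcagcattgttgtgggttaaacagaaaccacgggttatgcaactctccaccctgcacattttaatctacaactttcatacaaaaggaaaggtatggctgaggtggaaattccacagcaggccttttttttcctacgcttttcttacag
The Kitl stretch held 3 GC boxes and 1 TATA box, and those of Cxcl12 and Rgcc each 5 GC boxes and no TATA box. The Bmp4 stretch held 1 GC box and the Ctsl stretch neither motif. Whether these RefSeq starts are the starts used in the sorted cells was not tested. The stretch shown for Ctsl, or for another gene, may therefore not be its promoter here. Over all 32851 promoters of the RefSeq table, 32.7% held a GC box and 12.4% a TATA box in the same window. Of the tested symbols, 10750 had an entry in that table.

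Few genes were called in both lineages by separate tests, and a missing call does not show that a gene failed to follow the reporter. By edgeR's quasi-likelihood test at an adjusted p under 0.05, 244 genes (1.65% of those tested) were called between tomato+ and tomato- VEC, 84 higher (0.568%) and 160 lower (1.08%) in tomato+ cells. In the TEC contrast 1158 genes (7.83%) were called, 404 higher (2.73%) and 754 lower (5.1%) in tomato+ cTEC. The 2 lists shared 63 genes. These were 25.8% of the genes called in VEC, against 7.83% of all tested genes called in TEC. They were 5.44% of those called in TEC, against 1.65% of all tested genes called in VEC. Of these 63, 46 had the same sign in both lineages, 13 of them higher (0.0879% of all tested genes) and 33 lower (0.223%) in tomato+ cells, and 17 had opposite signs. Libraries did not overlap in 15.8% of all tested genes in VEC, in 39% in TEC and in 6.69% in both. Across all tested genes the log2 changes of both contrasts had a Pearson r of 0.0225, given as a description across genes, which are not independent replicates.

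The difference between the contrasts was tested directly, as (tomato+ VEC minus tomato- VEC) minus (tomato+ cTEC minus tomato- mTEC). It passed for 456 genes (3.08%), 228 in each direction. The shared part, the mean of both contrasts, passed for 771 genes (5.21%), with 329 means above 0 and 442 below. A mean can pass on a large step in 1 lineage: 303 of the 329 and 386 of the 442 had estimates of one sign in both lineages, and the other 82 had estimates of opposite sign. A gene was counted as following the reporter in 1 lineage when it was called in that contrast, not in the other, and the difference passed with the matching sign. That gave 95 genes for VEC, 33 higher (0.223% of all tested genes) and 62 lower (0.419%), and 265 for TEC, 108 higher (0.73%) and 157 lower (1.06%). For 86 further genes called in VEC alone and 830 called in TEC alone the difference did not pass, so no difference between the lineages was shown for them. Without the 2 libraries that stood apart, tomato+ VEC replicate 3 and tomato+ cTEC replicate 2, the 46 genes with one sign became 44, of which 32 were among the 46, and the 17 with opposite signs became 17, of which 10 were among the 17. The 360 genes of 1 lineage became 270, the difference passed for 333 and the shared part for 614. With each library left out in turn, the difference passed for 159 to 491 genes, and the genes called in both lineages with one sign numbered 28 to 58.

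**Figure D1:**
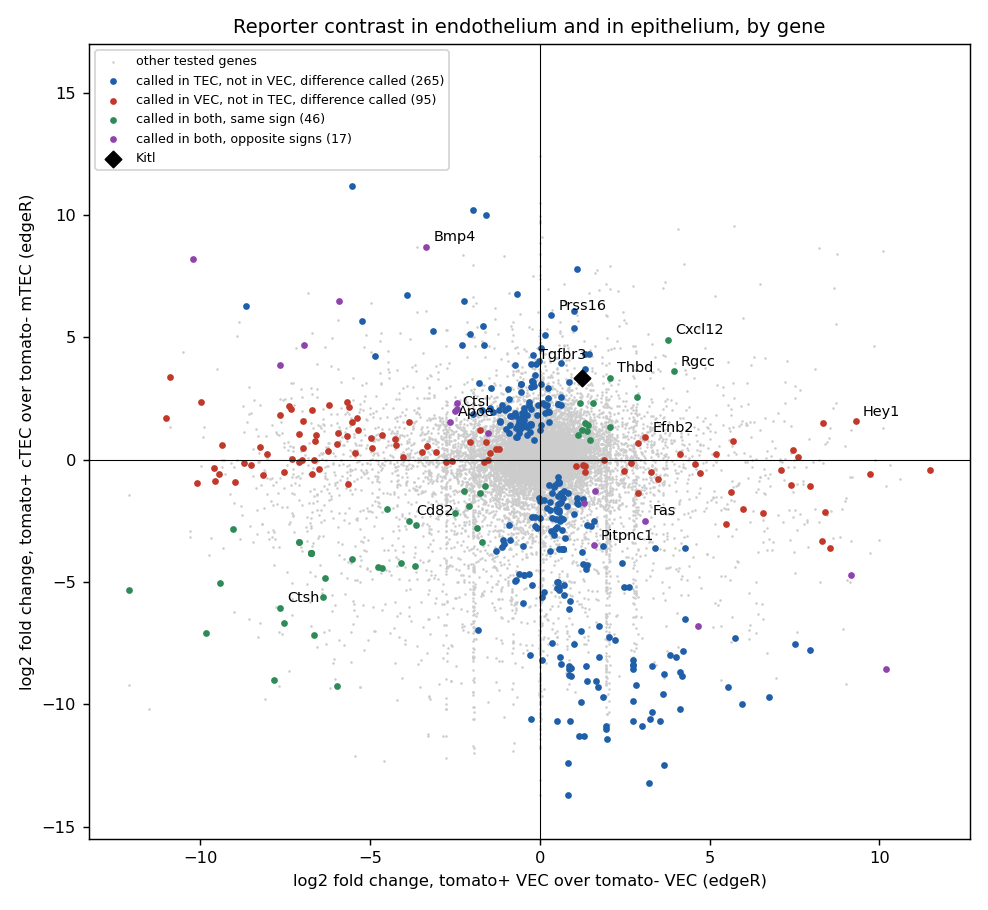
Log2 fold change of each tested gene between tomato+ and tomato- VEC (x axis) and between tomato+ cTEC and tomato- mTEC (y axis), from edgeR, where each point is a gene and colours mark the classes with their numbers of genes. The 265 TEC genes and the 95 VEC genes lie mostly along 1 axis or the other, the 46 shared genes lie in the upper right and lower left, and the 17 opposite genes in the other corners. Fitted values of genes with 0 to 3 reads in a group depend on the prior count.

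Kitl, the gene behind the reporter, served as the check of the gates. It was at 809, 1546 and 775 CPM in tomato+ VEC and at 393, 472 and 450 CPM in tomato- VEC, and at 182, 234 and 250 CPM in tomato+ cTEC against 35.5, 4.53 and 26.1 CPM in tomato- mTEC. The tomato+ libraries were above the tomato- libraries in both lineages, without overlap, and tomato- VEC were above tomato+ cTEC. Per length the means ran in the same order, at 173 ± 72.6 and 76 ± 8.78 RPKM in tomato+ and tomato- VEC and 45.1 ± 6.75 and 4.3 ± 3.14 RPKM in tomato+ cTEC and tomato- mTEC (SD, n = 3 each). The log2 change was 1.25 ± 0.53 (SE) in VEC, which did not pass (edgeR adjusted p = 0.266), and 3.33 ± 0.57 in TEC (adjusted p = 0.0053). The difference of -2.08 between the contrasts did not pass (adjusted p = 0.156), while the shared part of 2.29 ± 0.39 did (adjusted p = 0.00612), also with any single library left out. Kit, the receptor, had a shared part of -2.94 on the log2 scale (edgeR adjusted p = 0.0343), a call lost in 9 of the 12 fits that left out a library. Its change was -4.71 in TEC (edgeR adjusted p = 0.022) and -1.16 in VEC (adjusted p = 0.591), where the libraries overlapped. A fall of Kit in VEC was therefore not shown.

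The 13 genes that were higher in tomato+ cells of both lineages were Cxcl12, Thbd, Rgcc, Sptbn1, Ly6a, Nr3c1, Tsc22d1, Ccdc80, Dennd5b, Pls3, Ppap2a, Qk and S100a1. Cxcl12 encodes the chemokine that holds progenitors bearing CXCR4 in their niche. It was at 2039, 1413 and 1446 CPM in tomato+ VEC against 129, 122 and 108 CPM in tomato- VEC, and at 1248, 1232 and 930 CPM in tomato+ cTEC against 16.4, 30.3 and 66.7 CPM in tomato- mTEC. Every tomato+ library was several times above every tomato- library, whichever the lineage. The log2 change was 3.77 ± 0.43 in VEC (edgeR adjusted p = 0.000938) and 4.91 ± 0.46 in TEC (adjusted p = 0.000155), and the difference did not pass (adjusted p = 0.314). Per length, Cxcl12 reached 259 ± 53.3 RPKM in tomato+ VEC and 222 ± 37.7 RPKM in tomato+ cTEC (SD, n = 3 each).

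Thbd, thrombomodulin, which turns thrombin into an activator of anticoagulant protein C, was at 1242, 1239 and 690 CPM in tomato+ VEC against 230, 248 and 278 CPM in tomato- VEC. In epithelium it was at 217, 173 and 159 CPM in tomato+ cTEC against 13.2, 20.6 and 19.7 CPM in tomato- mTEC. Neither pair of groups overlapped, and the log2 changes were 2.07 ± 0.27 in VEC (edgeR adjusted p = 0.00258) and 3.36 ± 0.29 in TEC (adjusted p = 0.000102). Rgcc, a regulator of the cell cycle that responds to complement, was at 1208, 1345 and 1306 CPM in tomato+ VEC against 24.1, 86.4 and 141 CPM in tomato- VEC, and at 185, 191 and 136 CPM in tomato+ cTEC against 18.2, 15.6 and 7.7 CPM in tomato- mTEC. Its log2 changes of 3.94 ± 0.54 and 3.63 ± 0.54 were close to each other (edgeR adjusted p = 0.00358 and 0.00231, difference 0.32, adjusted p = 0.901). In tomato+ cells both genes were higher in endothelium than in epithelium, and the step from tomato- to tomato+ cells was found in each lineage.

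Ly6a, which encodes the surface protein Sca-1, rose by 1.43 ± 0.24 on the log2 scale in VEC and 1.4 ± 0.24 in TEC (edgeR adjusted p = 0.0101 and 0.00495). It was at 5313, 5429 and 5533 CPM in tomato+ VEC, 1656, 2082 and 2322 CPM in tomato- VEC, 2973, 2422 and 1518 CPM in tomato+ cTEC and 731, 966 and 914 CPM in tomato- mTEC. Nr3c1, the glucocorticoid receptor, was at 334, 317 and 292 CPM in tomato+ VEC against 125, 143 and 108 CPM in tomato- VEC, and at 135, 107 and 97.1 CPM in tomato+ cTEC against 32.1, 37.2 and 50.1 CPM in tomato- mTEC. The 2 genes moved by nearly the same step in each lineage, and for Nr3c1 the changes were 1.32 ± 0.24 and 1.51 ± 0.25 (edgeR adjusted p = 0.0184 and 0.00395). Tsc22d1, a leucine zipper protein induced by TGF-beta, rose by 1.23 ± 0.24 in both lineages (edgeR adjusted p = 0.0222 in VEC and 0.00986 in TEC). Sptbn1, the membrane-skeleton protein beta-II spectrin, rose by 1.18 ± 0.2 in VEC and 2.34 ± 0.2 in TEC (edgeR adjusted p = 0.0101 and 0.000102). Its difference of -1.15 passed at an adjusted p of 0.045, a call lost in 10 of the 12 fits without a library.

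Of the other members, Pls3, an actin-bundling plastin, rose by 1.49 in VEC and 0.79 in TEC, and Ppap2a, a lipid phosphate phosphatase that degrades lysophosphatidic acid and sphingosine 1-phosphate, by 1.13 and 1.02. Qk, an RNA-binding protein that steers splicing, rose by 1.39 and 1.16, and Dennd5b by 1.57 and 2.32 (edgeR adjusted p at most 0.0444 for these 4). Ccdc80, a matrix protein, rose by 2.87 and 2.58 from levels of 0.779 to 5.1 CPM in tomato- VEC and 34.8 to 71.8 CPM in tomato- mTEC. All 13 had libraries without overlap in both contrasts, as had 6.69% of all tested genes. A call in both contrasts largely brings this with it, so it adds no support. With each library left out in turn, Cxcl12, Thbd, Rgcc, Sptbn1 and Ly6a were called in both lineages every time. Without tomato+ cTEC replicate 2, the library with endothelial markers, 8 of the 13 kept this class, and without tomato- mTEC replicate 1 or replicate 2, 7 did.

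**Figure D2:**
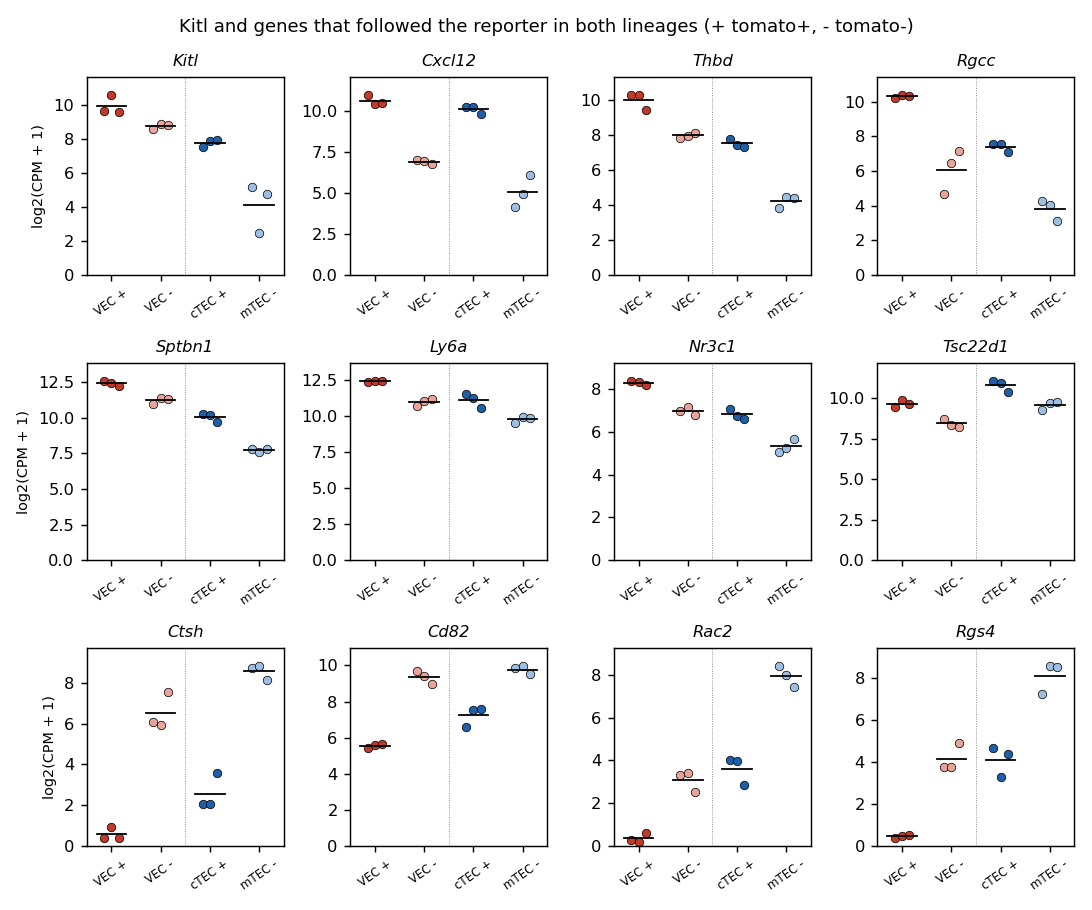
Level of Kitl and of 11 genes called in both lineages, as log2(CPM + 1) on the y axis of each panel, whose range differs between panels, for tomato+ VEC (VEC +), tomato- VEC (VEC -), tomato+ cTEC (cTEC +) and tomato- mTEC (mTEC -). Points are the 3 libraries of a group and bars their means. From Kitl to Tsc22d1 the tomato+ libraries lie above the tomato- libraries of their lineage, and in the last 4 panels they lie below.

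The 33 symbols that were lower in tomato+ cells of both lineages held 29 distinct count profiles, because members of the Ccl21 family were given identical counts. Ctsh, a lysosomal cysteine protease, was at 0.312, 0.915 and 0.321 CPM in tomato+ VEC against 66.6, 60.6 and 184 CPM in tomato- VEC, and at 3.12, 3.23 and 11 CPM in tomato+ cTEC against 425, 451 and 282 CPM in tomato- mTEC. It was close to absent from tomato+ VEC and low in tomato+ cTEC, with log2 changes of -7.66 ± 0.78 and -6.05 ± 0.69 (edgeR adjusted p = 0.0004 and 0.000485). Cd82, a tetraspanin, was at 41.3, 48.1 and 49.2 CPM in tomato+ VEC against 811, 692 and 504 CPM in tomato- VEC, and at 95.1, 182 and 192 CPM in tomato+ cTEC against 921, 992 and 727 CPM in tomato- mTEC. Its tomato- levels overlapped between the lineages, and its log2 changes were -3.86 and -2.5 (edgeR adjusted p = 0.000143 and 0.000562). Rac2, the small GTPase best known from blood cells, was at 4.82 to 9.67 CPM in tomato- VEC and 0.131 to 0.536 CPM in tomato+ VEC, and at 172 to 336 CPM in tomato- mTEC and 6.23 to 15.2 CPM in tomato+ cTEC. In tomato- mTEC, where Rac2 was highest, the macrophage and dendritic cell markers were also highest, and their part in the Rac2 level was not tested.

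Ccl21a, the chemokine that draws CCR7+ cells, was at 264, 277 and 77.3 CPM in tomato- VEC against 2.6, 0.785 and 1.07 CPM in tomato+ VEC, and at 3168, 4434 and 4781 CPM in tomato- mTEC against 458, 216 and 515 CPM in tomato+ cTEC. Its log2 change was -7.08 ± 0.65 in VEC and -3.38 ± 0.53 in TEC (edgeR adjusted p = 0.000169 and 0.0032), with a larger fall in VEC (difference -3.7, adjusted p = 0.0228, lost in 5 of the 12 fits without a library). Ccl21a, Ccl21b and Ccl21c are near-identical genes whose reads the counting could split, so the family is uncertain gene by gene. Ubd, an interferon-inducible ubiquitin-like protein, changed by -1.7 in VEC and -3.35 in TEC, Syngr2, a vesicle membrane protein, by -1.85 and -2.78, and Spint2, an inhibitor of serine proteases, by -2.23 and -1.28 (edgeR adjusted p at most 0.019). Dsg2, a desmosomal cadherin, was at 128 to 302 CPM in tomato- VEC and 7.45 to 12.1 CPM in tomato+ VEC, and at 295 to 513 CPM in tomato- mTEC and 76.7 to 111 CPM in tomato+ cTEC. Rgs4, an inhibitor of G-protein signals, fell by 5.53 ± 0.63 in VEC and 4.07 ± 0.53 in TEC (edgeR adjusted p = 0.000919 and 0.000987). All of them were found in tomato- cells of both lineages.

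Some genes of this class had a very low count in a tomato+ group. Extl1, an exostosin-like glycosyltransferase, had 1 read over tomato+ VEC, a level 934-fold lower than in tomato- VEC with a 95% counting interval of 167 to 36929. Slamf8, a surface receptor of myeloid cells, had 1 read over tomato+ cTEC and was 699-fold lower there than in tomato- mTEC, with an interval of 125 to 27646. Ncam1, a neural adhesion molecule, was 709-fold lower in tomato+ cTEC, with an interval of 242 to 3439. These intervals cover counting error only. Dclk1, a doublecortin-like kinase and tuft cell gene, fell by 9.03 in VEC and 2.84 in TEC (edgeR adjusted p = 0.000355 and 0.0224), and the difference passed (-6.19, adjusted p = 0.00814).

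A few members of the class were almost wholly endothelial. Darc, the atypical chemokine receptor of venules, was at 3084, 3503 and 2072 CPM in tomato- VEC and 61.5, 318 and 131 CPM in tomato+ VEC, but only at 0.771, 0.465 and 7.7 CPM in tomato- mTEC, 0.103% of the tomato- VEC level. Lyve1, a hyaluronan receptor of lymphatic endothelium, was at 78.2, 36.4 and 52.2 CPM in tomato- VEC and had no count in tomato+ VEC, at least 491-fold lower. In tomato- mTEC it was at 5.31% of the tomato- VEC level. The endothelial markers there summed to 0.26%, 0.551% and 0.166% of the tomato- VEC mean in replicates 1 to 3. The Darc share was below this in replicates 1 and 2, at 0.0267% and 0.0161%, and above it in replicate 3, at 0.267%, while the Lyve1 share was above it in each, at 12%, 2.09% and 1.87%. The TEC calls of Darc and Lyve1 were each lost in 8 of the 12 fits without a library, and by limma voom that of Darc had an adjusted p of 0.581. For 16 of the 33 symbols the class was kept with each library left out in turn, among them Ctsh, Cd82, Rac2, Rgs4, Slamf8, Extl1, Syngr2, Spint2, Dsg2 and the Ccl21 symbols. Several of these depended on the tool: by limma voom the VEC call was lost for Rgs4, Ccl21a and Ccl21b (adjusted p = 0.0601, 0.124 and 0.12), and with a weight per group also for Rac2 and Dsg2 (adjusted p = 0.254 and 0.0819). By limma voom the difference was lost for Ccl21a and Dsg2 (adjusted p = 0.408 and 0.156).

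The 17 genes with opposite signs split into 7 (0.0473% of all tested genes) that were higher in tomato+ VEC but lower in tomato+ cTEC and 10 (0.0676%) that were the reverse. Ctsl, the lysosomal protease that cortical epithelium uses to prepare peptides for positive selection, was at 965, 937 and 1158 CPM in tomato+ VEC against 6275, 6147 and 4731 CPM in tomato- VEC, and at 6576, 6497 and 8568 CPM in tomato+ cTEC against 1245, 1375 and 2810 CPM in tomato- mTEC. The high groups were tomato- VEC and tomato+ cTEC, and the low groups tomato+ VEC and tomato- mTEC. The log2 changes were -2.49 ± 0.29 and 1.99 ± 0.29 (edgeR adjusted p = 0.00116 and 0.00198), and the difference was -4.48 (adjusted p = 0.000286). Bmp4, a morphogen of the thymic stroma, was at 12.1, 4.97 and 12.6 CPM in tomato+ VEC against 113, 121 and 69.3 CPM in tomato- VEC, and at 19.1, 12.7 and 22.9 CPM in tomato+ cTEC, while 1 read was found over tomato- mTEC. It fell by 3.35 ± 0.6 in VEC (edgeR adjusted p = 0.0161) and was 581-fold above tomato- mTEC in tomato+ cTEC, with a 95% counting interval of 104 to 22972. The difference passed (adjusted p = 0.000277), with any single library left out as well.

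Apoe and Vldlr also belong to the 10 that were lower in tomato+ VEC and higher in tomato+ cTEC. Apoe, the lipoprotein ligand, was at 435, 491 and 517 CPM in tomato+ VEC against 3197, 3734 and 2039 CPM in tomato- VEC, and at 1631, 1246 and 1184 CPM in tomato+ cTEC against 258, 348 and 784 CPM in tomato- mTEC. Vldlr, a receptor that binds apolipoprotein E, was at 0.208, 0.392 and 1.39 CPM in tomato+ VEC against 71.8, 196 and 141 CPM in tomato- VEC, and at 136, 97.4 and 32.3 CPM in tomato+ cTEC against 8, 6.51 and 3.53 CPM in tomato- mTEC. In both genes the groups of each lineage did not overlap, and the differences were -4.18 and -11.52 (edgeR adjusted p = 0.00288 and 0.000413). Efemp1, the matrix protein fibulin-3, differed by -12.39 (edgeR adjusted p = 0.00459). Sirpa and A830082K12Rik also belong to the 10.

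Among the 7 with the reverse pattern, Fas, the death receptor, was at 399, 351 and 161 CPM in tomato+ VEC against 58.3, 21 and 26.8 CPM in tomato- VEC, and at 42.6, 58.7 and 87.8 CPM in tomato+ cTEC against 401, 404 and 262 CPM in tomato- mTEC. The ranges of the high groups overlapped between the lineages, and so did those of the low groups, with the tomato sign exchanged. Its log2 changes were 3.1 ± 0.47 and -2.5 ± 0.46 (edgeR adjusted p = 0.00725 and 0.00783), and the difference of 5.6 passed (adjusted p = 0.00178). Pitpnc1, a phosphatidylinositol transfer protein, was at 337, 430 and 290 CPM in tomato+ VEC against 96, 109 and 147 CPM in tomato- VEC, and at 29.3, 27.9 and 23.4 CPM in tomato+ cTEC against 381, 320 and 206 CPM in tomato- mTEC. Herpud1, a protein of the endoplasmic reticulum stress response, rose by 1.31 ± 0.28 in VEC and fell by 1.78 in TEC, and Enpp4, a membrane phosphodiesterase, rose by 1.63 ± 0.3 and fell by 1.29 (edgeR adjusted p at most 0.0369). For Tnfsf9, the ligand of the costimulatory receptor 4-1BB, the tomato+ VEC libraries were spread from 8.25 to 121 CPM. For Sox11, a neural transcription factor, they were spread from 0.312 to 35.5 CPM, and tomato- VEC had no count. Without a library the VEC call was lost in 11 of 12 fits for Herpud1 and for Sox11, in 3 for Tnfsf9 and in 1 for Enpp4, and the TEC call in 7 fits for Tnfsf9, 5 for Sox11 and 4 for Enpp4. Gm14085 completes the 7. Of the 17 genes, Fas, Ctsl, Vldlr and A830082K12Rik kept opposite calls in every fit that left out a library.

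**Figure D3:**
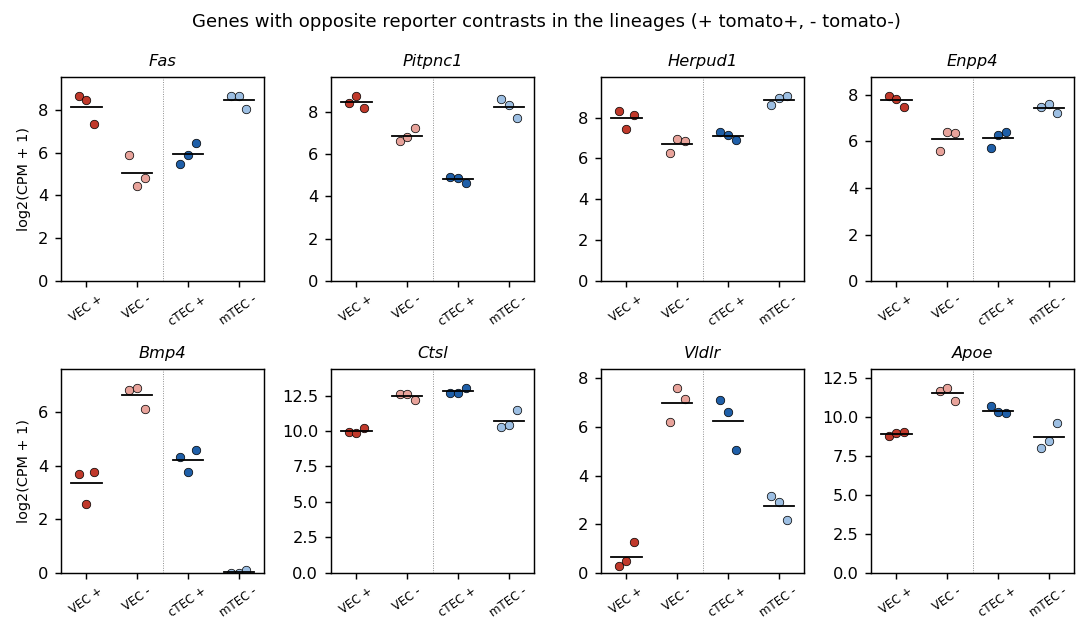
Level of 8 genes whose reporter contrasts had opposite signs, as log2(CPM + 1) on the y axis of each panel, whose range differs between panels, with groups, points and bars as in the plot of the genes shared by both lineages. In Fas, Pitpnc1, Herpud1 and Enpp4 tomato+ VEC and tomato- mTEC are the higher groups of their lineages. In the other 4 genes tomato- VEC and tomato+ cTEC are the higher groups, though in Bmp4 tomato+ cTEC lies well below tomato- VEC.

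For 2 genes chosen to complete that group of 8, the VEC contrast did not pass but the difference did. Anxa4, an annexin, was at 334 to 398 CPM in tomato+ VEC and 219 to 258 CPM in tomato- VEC, and at 231 to 297 CPM in tomato+ cTEC and 830 to 904 CPM in tomato- mTEC. Its difference was 2.37 (edgeR adjusted p = 0.00076). Srgn, the granule proteoglycan serglycin, was at 542 to 976 CPM in all VEC libraries, 24.1 to 147 CPM in tomato+ cTEC and 2114 to 2974 CPM in tomato- mTEC, and its difference was 5.55 (adjusted p = 0.00216).

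Genes of arterial endothelium were among the 33 that rose with the reporter in VEC with a difference from TEC. Efnb2, ephrin-B2, the classic arterial ligand, was at 618, 400 and 502 CPM in tomato+ VEC against 36.5, 47.1 and 93.7 CPM in tomato- VEC, and at 130, 163 and 107 CPM in tomato+ cTEC against 46.7, 71.9 and 91.8 CPM in tomato- mTEC. The groups did not overlap in either lineage, but the step was 3.1 ± 0.39 in VEC (edgeR adjusted p = 0.00194) and 0.93 ± 0.37 in TEC (adjusted p = 0.167). The difference of 2.18 passed at an adjusted p of 0.045 and was lost in 10 of 12 fits without a library. Hey1, a target of Notch signals, was at 16.5, 140 and 72.9 CPM in tomato+ VEC and had 3 reads over tomato- VEC, a 653-fold step with a 95% counting interval of 223 to 3168. In epithelium it was at 57.2, 38.2 and 51.5 CPM in tomato+ cTEC and 14.3, 17.2 and 17.7 CPM in tomato- mTEC, without overlap, which did not pass (edgeR adjusted p = 0.283). The difference for Hey1 passed (adjusted p = 0.00994).

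Other members were not arterial genes. Slc26a10 was at 227, 122 and 83.2 CPM in tomato+ VEC with 1 read over tomato- VEC, 3992-fold higher with an interval of 716 to 157717, and between 0.952 and 5.78 CPM in the epithelial libraries. B4galnt1, which makes gangliosides, was at 1.82 to 19.2 CPM in tomato+ VEC and had no count in tomato- VEC, at least 92.8-fold higher. Of the cell cycle genes, Ccnd2, cyclin D2, rose by 1.28 ± 0.25 in VEC (edgeR adjusted p = 0.0238) with a difference of 1.5 (adjusted p = 0.0412), and Cdkn1c, the inhibitor p57, was at 19 to 58.2 CPM in tomato+ VEC against 0.111 to 2.02 CPM in tomato- VEC. The VEC call of Cdkn1c was lost in 9 of 12 fits without a library, and the difference for Ccnd2 in 10. S100a4, Lrrc2, Ank3, Fam89a and Vwa3a complete the genes with the largest steps, with levels of at most 38.3 CPM in tomato+ VEC. Of the 33 genes, 29 had a mean of at least 5 CPM in an epithelial group. The epithelial estimate was of the opposite sign in 24. In 8 of these the epithelial groups did not overlap, against 39% of all tested genes. A difference must pass for this class, which favours opposite signs, so no reversal is read from the 24.

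The 62 genes that fell with the reporter in VEC had levels in tomato+ VEC that were often near 0. Ltbp2, a binding protein of latent TGF-beta and elastic fibres, was at 696, 565 and 295 CPM in tomato- VEC and 0, 0.131 and 1.82 CPM in tomato+ VEC, against 20.4 to 44.3 CPM in tomato+ cTEC and 22.4 to 56.5 CPM in tomato- mTEC. It fell by 9.58 ± 1.04 in VEC (edgeR adjusted p = 0.000689), and the difference of -9.24 passed (adjusted p = 0.00309). Fam134b, a receptor for turnover of the endoplasmic reticulum, was at 10.1, 9.35 and 9.19 CPM in tomato- VEC and had no count in tomato+ VEC, at least 84.7-fold lower. Tmem107, of the transition zone of cilia, was at 13 to 14.6 CPM in tomato- VEC with no count in tomato+ VEC, at least 122-fold lower. Tox, a regulator of T-cell development, was at 10.2 to 96.2 CPM in tomato- VEC with 2 reads over tomato+ VEC, 590-fold lower with an interval of 163 to 4879. All 3 were also found in epithelium, where the TEC contrast did not pass.

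In tomato+ VEC the members Plxnb2, Irf8, Lgr4 and F8 were lower but still detected. Plxnb2, a semaphorin receptor, was at 164, 146 and 100 CPM in tomato- VEC against 21.7, 14.1 and 32.2 CPM in tomato+ VEC, and at 47.4 to 74.5 CPM in all epithelial libraries. Its log2 change was -2.59 ± 0.38 in VEC and -0.05 ± 0.35 in TEC, with a difference of -2.54 (edgeR adjusted p = 0.00544, 0.97 and 0.0231). Irf8, an interferon regulatory factor, fell by 2.76 in VEC and changed by -0.09 in TEC (edgeR adjusted p of the difference 0.0236). Lgr4, a receptor for R-spondins that raises Wnt signals, fell by 2.06 ± 0.3 in VEC (edgeR adjusted p = 0.0056) and differed by -2.76 (adjusted p = 0.00566). Coagulation factor VIII, F8, was at 362 to 521 CPM in tomato- VEC and 34 to 67.7 CPM in tomato+ VEC (edgeR adjusted p = 0.0232). Pdpn, podoplanin, was near 0 in tomato+ VEC, with 5 reads in all and at most 0.392 CPM, against 3.45, 24.8 and 48.2 CPM in tomato- VEC. In epithelium it was higher in the tomato+ cells, at 724, 809 and 671 CPM in tomato+ cTEC against 141, 199 and 395 CPM in tomato- mTEC, without overlap, a step of 1.58 ± 0.66 that did not pass (edgeR adjusted p = 0.194). Of the 62 genes, 60 had a mean of at least 5 CPM in an epithelial group. The epithelial estimate was of the opposite sign in 45, which the rule for this class favours. In 26 of these the epithelial groups did not overlap, against 39% of all tested genes.

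The 108 genes that rose in tomato+ cTEC with a difference from VEC included Tgfbr3 and Tgfbr2, receptors of TGF-beta. Tgfbr3, the co-receptor betaglycan, was at 316, 329 and 285 CPM in tomato+ cTEC against 17.5, 19.1 and 25.4 CPM in tomato- mTEC, and at 474, 425 and 426 CPM in tomato+ VEC and 500, 493 and 579 CPM in tomato- VEC. All endothelial libraries had it at a high level whatever the reporter, and the step was found in epithelium, at 3.91 ± 0.22 against -0.25 ± 0.19 in VEC (edgeR adjusted p = 3.38e-06 and 0.591, difference -4.15, adjusted p = 7.46e-05). Tgfbr2, the type II receptor, rose by 3.19 ± 0.41 in TEC (edgeR adjusted p = 0.000905), and its difference of -2.31 passed at an adjusted p of 0.0411. That call was lost in 10 of 12 fits without a library and by limma voom (adjusted p = 0.0576). Dhrs3, which reduces retinaldehyde, was at 665, 676 and 1020 CPM in tomato+ cTEC, 137, 161 and 174 CPM in tomato- mTEC and 276 to 388 CPM in all VEC libraries, with a difference of -2.24 (edgeR adjusted p = 0.00459). Foxo1, a transcription factor restrained by insulin signals, rose by 1.8 ± 0.34 in TEC and changed by -0.71 ± 0.33 in VEC (edgeR adjusted p = 0.00935 and 0.323, difference -2.5, adjusted p = 0.0188).

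Some of these genes are themselves strong in endothelium. Sdpr, a caveolar coat protein, was at 46.8, 65.3 and 7.36 CPM in tomato+ cTEC, 0.193 to 1.4 CPM in tomato- mTEC and 572 to 1586 CPM in VEC, with replicate 2 the highest of tomato+ cTEC. Stom, stomatin, was at 11.6, 51.1 and 12.2 CPM in tomato+ cTEC and 85.2 to 347 CPM in VEC. Its highest cTEC library was replicate 2, where the endothelial markers were also highest, and tomato- mTEC was at most at 0.349 CPM. The part of endothelial RNA in this level was not tested. Prss23, a serine protease, was at 91, 114 and 30.8 CPM in tomato+ cTEC with 2 reads over tomato- mTEC, 1207-fold higher with an interval of 334 to 9972, and at 61.3 to 355 CPM in VEC. The matrix genes Ogn (osteoglycin) and Dcn (decorin) were at 61.6 to 124 CPM and 1559 to 2057 CPM in tomato+ cTEC, against at most 1.93 CPM and 370 CPM in tomato- mTEC, and at most 44.1 CPM in any VEC library. Dcn is 1 of 7 markers of fibroblasts and pericytes. The other 6 summed to 141 to 346 CPM in tomato+ cTEC and 475 to 771 CPM in tomato- mTEC. The largest were Rgs5 and Acta2, at 206 to 434 and 225 to 361 CPM in tomato- mTEC. In tomato+ cTEC these were at 8.62 to 65.5 and 75.7 to 324 CPM. Pdgfrb was also higher in tomato- mTEC, at 5.4 to 17 against 0.173 to 3.23 CPM. The fibroblast genes Col1a2, Col1a1 and Pdgfra reached 36.9, 10.2 and 9.26 CPM in tomato+ cTEC. In tomato- mTEC they reached 2.33, 6.75 and 4.3 CPM, and the ranges overlapped. The part of fibroblasts and pericytes in these levels was not tested. Ccrl1, an atypical receptor that removes CCL19, CCL21 and CCL25, was at 697, 765 and 781 CPM in tomato+ cTEC against 4.88 to 17.2 CPM in tomato- mTEC. In endothelium Ccrl1 was at 58.5, 0.212 and 2.35 CPM in tomato- VEC, 1 library far above the others, and at most 0.107 CPM in tomato+ VEC. That change of -8.66 did not pass (edgeR adjusted p = 0.0552). Prss16, the thymus-specific serine protease, was at 1318, 1079 and 829 CPM in tomato+ cTEC against 15.1 to 20.5 CPM in tomato- mTEC. Prss16 was at most 0.321 CPM in VEC. Without tomato+ cTEC replicate 2, 50 of the 108 genes kept this class.

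The 157 genes that fell in tomato+ cTEC with a difference from VEC included 22 with at most 3 reads over each VEC group, for which the endothelial side is at the floor of detection. Ccl22, a chemokine for CCR4+ cells, was at 93.4, 364 and 48.7 CPM in tomato- mTEC with no count in tomato+ cTEC, at least 1629-fold lower. Fcer2a, a low-affinity IgE receptor, was at least 1265-fold lower, Psca, a stem cell antigen of epithelia, at least 761-fold and Iapp, amylin, at least 764-fold. The tested B cell marker was also higher in tomato- mTEC, and the part of B cells in the Fcer2a level was not tested. Kynu, kynureninase, was at 65.5 to 199 CPM in tomato- mTEC with 1 read over tomato+ cTEC, 3445-fold lower with an interval of 618 to 136098. In VEC libraries these 5 genes did not exceed 2.25 CPM, and the test of their difference rests on those few reads. Ccl19, the other CCR7 ligand, was at 187 to 304 CPM in tomato- mTEC against 3.72 to 6.42 CPM in tomato+ cTEC, and at most 0.523 CPM in VEC, with 9 reads over each VEC group.

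Tnfrsf11a, Car4, Sox7 and Nov of this class were also found in endothelium, where their contrast did not pass. Tnfrsf11a, the receptor RANK, was at 139, 198 and 182 CPM in tomato- mTEC against 7.24, 4.8 and 8.14 CPM in tomato+ cTEC, and at 83.3, 46.4 and 7.82 CPM in tomato+ VEC and 63.4, 74.5 and 74.2 CPM in tomato- VEC. The log2 change was -4.68 ± 0.68 in TEC and -0.62 ± 0.59 in VEC, with a difference of 4.06 (edgeR adjusted p = 0.00207, 0.654 and 0.0282). Car4, carbonic anhydrase 4 of capillaries, was at 60.7 to 93.9 CPM in tomato- mTEC, 0.26 to 5.32 CPM in tomato+ cTEC and 328 to 1250 CPM in VEC, and Sox7, an endothelial transcription factor, at 5.12 to 8.2 CPM, at most 0.588 CPM and 120 to 413 CPM. Nov, a secreted CCN protein, had 3 reads over tomato+ cTEC, 40.5-fold below tomato- mTEC with an interval of 13.5 to 199, and was at 43.8 to 125 CPM in VEC. The difference was lost in 9 of 12 fits without a library for Tnfrsf11a and in 7 for Car4, and by limma voom for both (adjusted p = 0.0737 and 0.163). Of the 157 genes, 91 had a mean of at least 5 CPM in a VEC group. The endothelial estimate was of the opposite sign in 133. In 38 of these the VEC libraries did not overlap, against 15.8% of all tested genes. A difference must pass for this class, which favours opposite signs. For genes at the floor of detection the sign has no meaning, so no reversal is read from the 133.

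**Figure D4:**
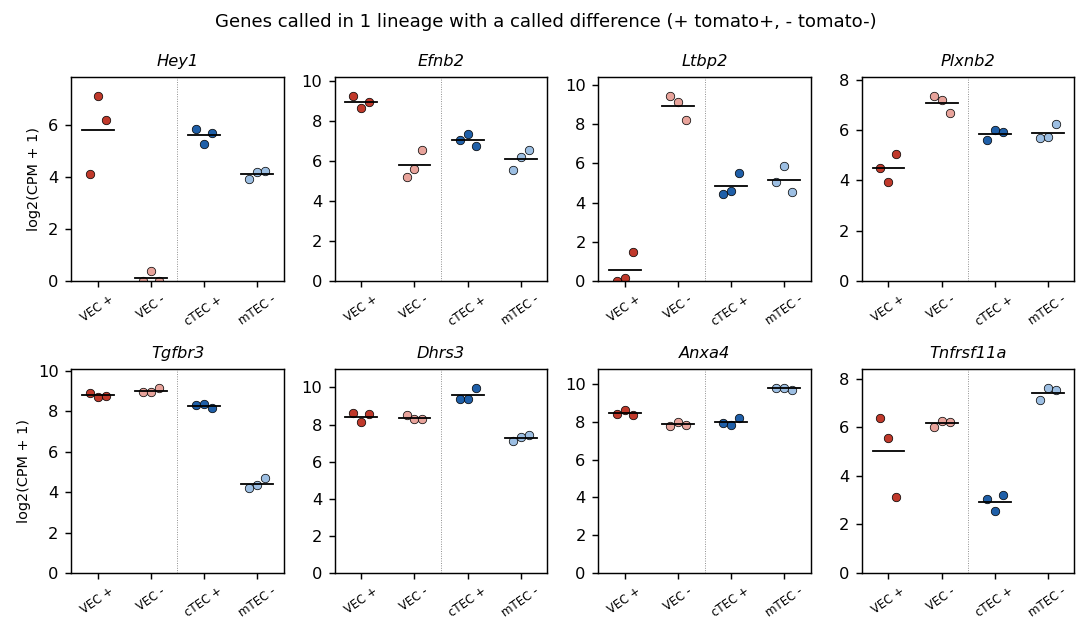
Level of 8 genes called in 1 lineage with a called difference, as log2(CPM + 1) on the y axis of each panel, whose range differs between panels, with groups, points and bars as in the plot of the genes shared by both lineages. In the upper panels the step lies in VEC and in the lower panels in TEC, while the other lineage has a smaller step or none.

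Gene lists of vessel types were then read in both contrasts, each beside all tested genes, whose medians were 0 in VEC and 0.02 in TEC. The lists were not independent of earlier results of these data. Of 19 tested arterial genes, 7 passed in the shared part, all with a mean above 0, against 2.22% of all tested genes. In 6 of the 7, among them Efnb2, Hey1 and Nrp1, both estimates were above 0. The seventh, Fbln2, fibulin-2, was lower in tomato+ VEC, at 417 to 476 CPM against 545 to 720 CPM, and higher in tomato+ cTEC, and its shared call was lost in 11 of 12 fits without a library. The median of the 19 was 1.95 in VEC (2.15 with genes without a count in a group at their bound) and 1.27 in TEC. The 6 endothelial markers had medians of 0.41 in VEC and 3.7 in TEC, and 1 of them, Kdr, rose in the shared part. A TEC median above 0 was thus not particular to the arterial list. Summed, the 6 markers reached 303 CPM in tomato+ cTEC replicate 2, but 15.3 and 2.08 CPM in replicates 1 and 3. In tomato- mTEC they reached 13.9 to 45.9 CPM, so only replicate 2 of tomato+ cTEC lay above that range. The part of endothelial RNA in tomato+ cTEC in these values was not tested. Nrp1, a co-receptor of VEGF, was at 1214 to 1461 CPM in tomato+ VEC against 531 to 655 CPM in tomato- VEC, and at 26.8 to 86.4 CPM in tomato+ cTEC against 14.8 to 24.5 CPM in tomato- mTEC, with a shared part of 1.47 (edgeR adjusted p = 0.00678). Of 18 tested genes of the Notch pathway, 4 rose and 2 fell in the shared part (2.22% and 2.99% of all tested genes). Jag1 and Jag2, ligands of Notch, rose by 0.9 and 2.34 (edgeR adjusted p = 0.0123 and 0.0357) and Notch2, a receptor, fell by 1.2 (adjusted p = 0.00744). For Jag1, Jag2 and Nrp1 the VEC contrast alone did not pass (edgeR adjusted p = 0.0656, 0.214 and 0.111).

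Among genes of veins and of leukocyte homing more fell than rose in the shared part. Of 16 tested venous genes, 4 fell and 1 rose in the shared part, against 2.99% and 2.22% of all tested genes. Of 10 tested homing genes, 4 fell and 1 rose, against the same shares. Selp and Madcam1 are on both lists and are counted among the genes that fell in each. Selp, P-selectin, on which progenitors roll, was at 1270, 998 and 1488 CPM in tomato- VEC against 26.9, 45.3 and 156 CPM in tomato+ VEC. It was at most at 8.37 CPM in epithelium, where the groups overlapped. Its shared part was -3.91 (edgeR adjusted p = 0.0128), while neither contrast alone passed (edgeR adjusted p = 0.0652 in VEC and 0.0727 in TEC). The venous transcription factor Nr2f2 was at 433 to 534 CPM in tomato- VEC and 44.7 to 168 CPM in tomato+ VEC. In epithelium it was higher in tomato+ cTEC, at 12.7, 31.3 and 4.94 CPM against 2.09 to 4.72 CPM in tomato- mTEC. The highest of these was replicate 2, where the endothelial markers were also highest. How much of this level came from endothelial RNA was not tested. Neither contrast passed for Nr2f2 (edgeR adjusted p = 0.0842 and 0.0507), while their difference of -4.53 did (adjusted p = 0.0202). Of 6 tested lymphatic genes, 4 passed in the shared part with a mean below 0, against 2.99% of all tested genes. Lyve1, Reln and Ccl21a had estimates below 0 in both lineages, while Pdpn was higher in tomato+ cTEC, as given above. Without a library the shared call was lost in 11 of 12 fits for Reln and 5 for Pdpn. The 6 genes had a median of -6.32 in VEC (-6.41 at the bounds) and -3.5 in TEC. The capillary list had 4 genes that rose and 1 that fell of 13, against 2.22% and 2.99% of all tested genes. Lpl, lipoprotein lipase, was at 79.9 to 397 CPM in tomato+ VEC against 0.445 to 6.05 CPM in tomato- VEC, with a shared part of 3.84 (edgeR adjusted p = 0.0143).

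Of 24 tested genes of basement membrane and matrix, 5 had a called difference, all toward TEC, against 1.54% of all tested genes in that direction, and 4 others rose in the shared part, against 2.22%. Sparc, a collagen-binding matrix protein, was at 3739, 4048 and 7235 CPM in tomato+ VEC against 2203 to 3289 CPM in tomato- VEC, and at 637 to 844 CPM in tomato+ cTEC against 119 to 231 CPM in tomato- mTEC (shared part 1.55, edgeR adjusted p = 0.00214). Fn1, fibronectin, was at 190 to 255 CPM in tomato+ VEC against 0.531 to 12.8 CPM in tomato- VEC and rose in the shared part by 3.12 (edgeR adjusted p = 0.00547). In the BMP and TGF-beta list of 27 tested genes, the difference passed for Bmp4, Tgfbr2 and Tgfbr3, all toward TEC, against 1.54% of all tested genes. The shared part passed for 4 genes, against 2.22%: these 3, of which Bmp4 and Tgfbr3 had an estimate below 0 in VEC, and the BMP target Id3, at 0.9 (edgeR adjusted p = 0.0312, lost in 6 of 12 fits without a library). The median of that list was 0 in VEC (0.07 at the bounds) and 0.86 in TEC.

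Cortical and medullary lists followed the epithelial gate, which the TEC contrast contains. Of 15 tested cortical genes, 9 rose in TEC, against 2.73% of all tested genes. In VEC 1 rose and 2 fell, against 0.568% and 1.08% of all tested genes. The medians were 3.18 in TEC and 0.33 in VEC (0.05 at the bounds). Of 16 tested medullary genes, 9 fell in TEC, against 5.1%, and 1 in VEC, against 1.08%. The differences passed for 5 cortical genes, all toward TEC, and for 4 medullary genes, against 1.54% of all tested genes in each direction. Among these 4, Ccl19, Tnfrsf11a and Fezf2 were lower in TEC and Ccl21a was lower by more in VEC. Fezf2, a transcription factor of medullary epithelium, was at 139 to 265 CPM in tomato- mTEC against 1.37 to 8.14 CPM in tomato+ cTEC and at most 0.654 CPM in VEC.

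Further lists were read in the shared part, in which 2.22% of all tested genes rose and 2.99% fell. Of 16 tested immediate early genes, which cell dissociation can induce, 4 rose in the shared part, Egr1, Ier3, Nr4a1 and Btg2, by 0.89 to 1.32 on the log2 scale. The calls of Egr1 and Btg2 were lost in 4 and 8 of 12 fits without a library. The part of dissociation in the other results was not tested. Klf2, a factor induced by blood flow, was at 325 to 750 CPM in tomato+ VEC against 170 to 277 CPM in tomato- VEC, and at 70.6 to 169 CPM in tomato+ cTEC against 5.5 to 25.9 CPM in tomato- mTEC (shared part 2.17, edgeR adjusted p = 0.00744). Of 23 tested interferon-stimulated genes, 4 rose and 2 fell in the shared part, where Cxcl9, 1 of the 2 that fell, had estimates of opposite sign, and of 20 NF-kB and TNF superfamily genes 4 fell, among them Birc3, an inhibitor of apoptosis, by 1.7 (edgeR adjusted p = 0.00546). Of 12 tested MHC class II genes only Cd74, the invariant chain, passed, at 25478 to 29074 CPM in tomato+ cTEC against 42729 to 55287 CPM in tomato- mTEC and at 208 to 423 CPM against 679 to 1617 CPM in VEC (shared part -1.33, edgeR adjusted p = 0.00499). Of 15 tested glycolysis genes, 3 fell, Pkm, Eno1 and Pgk1, by 0.72 to 0.84, with Eno1 lost in 9 and Pgk1 in 12 of the 12 fits without a library. Of 24 tested cell cycle genes 1 fell in the shared part, near the share of all tested genes, and 2 had a called difference, against 3.08% of all tested genes.

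**Figure D5:**
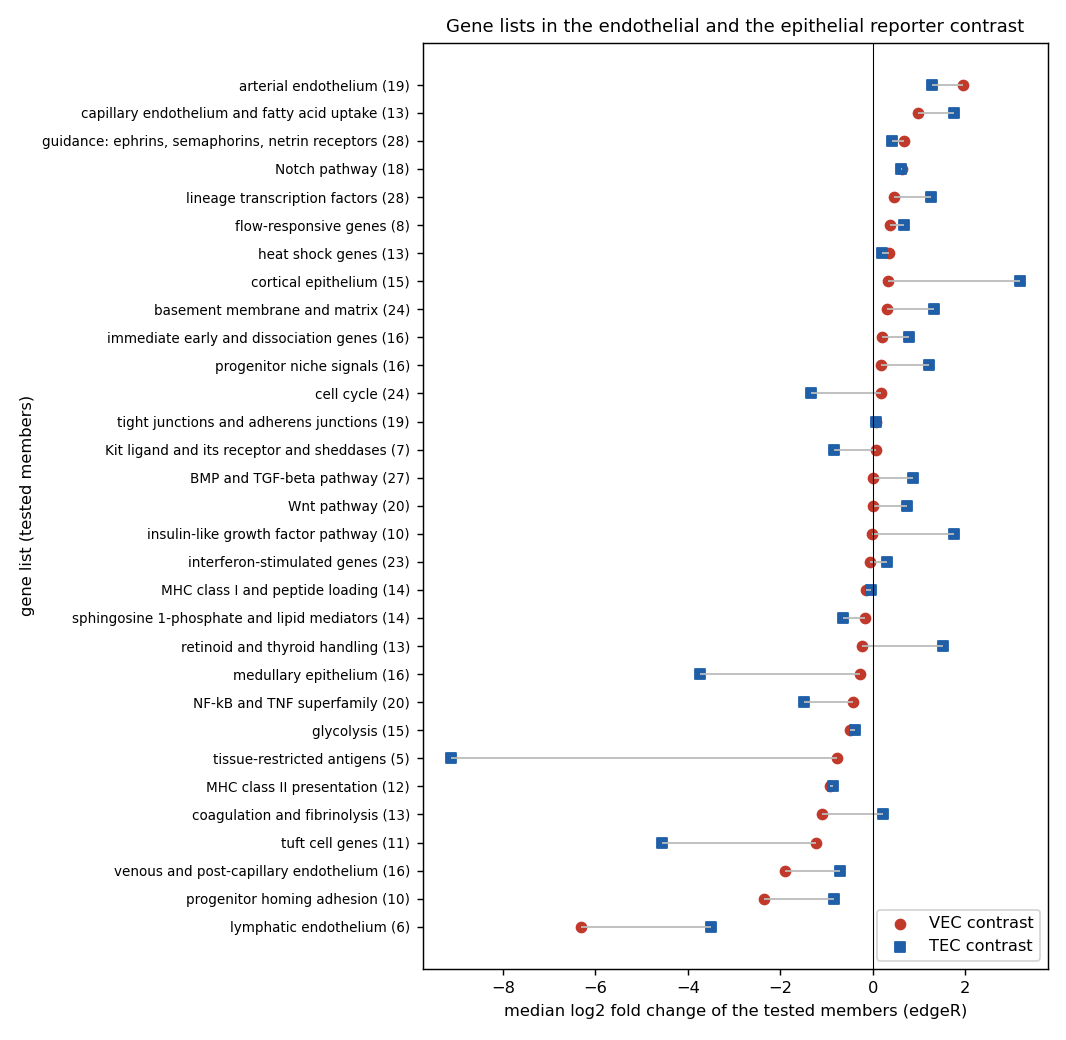
Median log2 fold change of the tested members of each gene list in the VEC contrast (circles) and the TEC contrast (squares), on the x axis, with the number of tested members after each list name on the y axis. The arterial list lies at 1.95 and 1.27, the lymphatic list at -6.32 and -3.5, and the cortical list at 0.33 and 3.18.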

How the data were processed

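Poly(A) RNA of 12 libraries in 4 groups of 3 was amplified with an ultra-low input kit, per the labels' protocols. TopHat2 2.0.10 and the build mm9 appear, per the submitters' processing notes. The read counter, the annotation and any use of strand were not given in the sources used here, so overlapping or antisense genes may share reads. The deposited table holds whole-number read counts per gene symbol and RPKM values, per the file headers. RPKM, which depends on the authors' gene lengths, is used only for levels per length.

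Counts were tested with edgeR 4.0.16 (R 4.3.3) with filterByExpr (minimum count 10), TMM scaling, a term per group over all 12 libraries, quasi-likelihood tests with 8 residual degrees of freedom and Benjamini-Hochberg adjustment over 14792 genes, called under 0.05. The biological coefficient of variation was 0.790. Of 23306 symbols, 1704 had no count, and 50 tested symbols shared all their counts with another symbol. Totals were 8388869 to 11807130 counts per library.

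Where a group had no count for a gene, 3 counts in that group were assumed and the fold is written as at least that value, and 1 to 3 counts are given as a ratio with its 95% counting interval. Fold changes are log2 values.

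Named genes were Kitl and the sorting genes, the 12 per direction with the smallest larger p among genes called in both contrasts, the 8 per lineage and direction with the largest change among genes of that lineage with no overlap and at least 5 CPM, the 8 per orientation with the smallest p of the difference among opposite genes (completed from genes with no overlap), and up to 4 called members of each of 39 gene lists. Unnamed gene models and genes sharing all counts were left out. S100a1, Sirpa, A830082K12Rik, Gm14085 and the Ccl21 symbols were named after their values were seen. Some genes that the rule takes are not reported here. The comparison, the members and the lists were chosen with earlier results of these data known.

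Alternatives were DESeq2 1.42.0, limma 3.58.1 voom with and without group weights, relative log expression scaling, no filter, at least 5 CPM in 3 libraries, a log2 change of at least 1, the replicate number as a block, each contrast on its own libraries, and each library left out. The fit without tomato+ VEC replicate 3 (between the groups on a principal component) and tomato+ cTEC replicate 2 was added after seeing the data. The scripts were tested on simulated counts. Promoters are from RefSeq, GRCm38.p6, which differs from the build of the counts, so no position was carried between builds.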

Additional observations from a re-analysis of the deposited data

Results flagged for a closer look

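For the genes below the test of the difference between the contrasts (VEC minus TEC, log2, edgeR adjusted p under 0.05) passed. Values for genes with 0 to 3 reads in a group depend on the prior count of the fit and are no measure of size.

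Among genes called in both lineages with one sign, the difference was -1.15 for Sptbn1, -2.47 for Dsg2, -2.93 for Ccl21b, -3.7 for Ccl21a and -6.19 for Dclk1. Among genes of opposite sign and higher in tomato+ VEC, it was 2.92 for Enpp4, 3.09 for Herpud1, 5.08 for Pitpnc1, 5.6 for Fas, 13.88 for Tnfsf9 and 18.71 for Sox11. For the reverse orientation it was -4.18 for Apoe, -4.48 for Ctsl, -11.52 for Vldlr, -12.06 for Bmp4 and -12.39 for Efemp1.

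Among genes that rose in VEC, the difference was 1.5 for Ccnd2, 2.18 for Efnb2, 6.85 for Ank3, 7.72 for Hey1, 8.08 for Cdkn1c, 9.04 for Vwa3a, 10.3 for B4galnt1, 10.55 for Lrrc2, 11.64 for Fam89a, 11.94 for Slc26a10 and 12.13 for S100a4. Among genes that fell in VEC it was -2.54 for Plxnb2, -2.67 for Irf8, -2.76 for Lgr4, -3.9 for F8, -8.08 for Tox, -8.55 for Pdpn, -8.69 for Fam134b, -9.12 for Tmem107, -9.24 for Ltbp2 and -9.59 for Igfbp5.

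Among genes that rose in TEC, the difference was -1.37 for Efna1, -1.42 for Tcf7l2, -1.75 for Ier3, -1.75 for Gbp2, -2.24 for Dhrs3, -2.31 for Tgfbr2, -2.5 for Foxo1, -4.15 for Tgfbr3, -4.4 for Dcn, -5.08 for Sdpr, -5.59 for Prss16, -6.69 for Stom, -7.47 for Ogn, -11.59 for Prss23 and -14.94 for Ccrl1. Among genes that fell in TEC it was 2.37 for Anxa4, 4.06 for Tnfrsf11a, 4.35 for Car4, 5.51 for Sox7, 5.55 for Srgn, 5.66 for Ccl19, 5.76 for Nov, 6.27 for Fezf2, 8.24 for Trpm5, 12.51 for Kynu, 13.25 for Iapp, 14.51 for Ccl22, 16.19 for Psca and 16.39 for Fcer2a. With neither contrast called, it was -4.53 for Nr2f2 and 6.31 for Rgs5.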

How the results depend on the processing

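The counts of calls depended on the tool. DESeq2 called the difference for 1407 genes and the shared part for 1794, with 183 genes following the reporter in both lineages, 1158 in 1 lineage and 79 in opposite directions. It held all 46 shared and all 17 opposite genes of edgeR. Limma voom gave 1309, 1610, 93, 1120 and 47, with 29 of the 46 and 15 of the 17, and split the difference into 847 higher and 462 lower, where edgeR had 228 each. With a weight per group voom gave 904 for the difference, split into 577 and 327, 1329 for the shared part, 775 for 1 lineage and 29 for opposite directions, and held 25 of the 46 shared genes, 11 of the 17 opposite genes and 42 of the 95 genes of VEC alone. On its own 6 libraries each, the contrasts gave 9 opposite genes. The cause of these shifts was not tested.

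Leaving out each library moved the difference between 159 and 491 genes, the shared part between 386 and 872, both lineages between 28 and 58, 1 lineage between 137 and 405 and opposite directions between 8 and 24. The lowest values for the difference, the shared part, 1 lineage and opposite directions came without tomato- mTEC replicate 1, and the lowest for both lineages without tomato- mTEC replicate 2. The difference fell to 287 genes without tomato- VEC replicate 1, to 188 and 255 without tomato+ cTEC replicates 1 and 3, and to 192 and 220 without tomato- mTEC replicates 2 and 3, and the shared part to 467 without tomato+ cTEC replicate 2. Same-numbered libraries correlated at -0.0136 to 0.0768 in their deviations from the group means, so the numbers were not taken to pair samples. The replicate block gave 269 genes for the difference and 224 for 1 lineage, and moved no other count by over 1.5 times. Of the genes above, the difference was also lost in 11 of the 12 fits without a library for Ier3, 10 for Vwa3a and Ccl21b, 9 for F8, Lrrc2 and Ogn, 8 for Ccl22, 7 for Plxnb2 and Ank3, and 6 for Irf8, Fezf2 and Dcn. The VEC call was lost in 11 for S100a4, 9 for Dennd5b, Ppap2a and Lrrc2, and 7 for Efemp1, and the TEC call in 7 for Pls3. By limma voom the difference was lost for Sptbn1, Sdpr, F8, Dclk1 and Dcn (adjusted p = 0.0616, 0.0607, 0.0952, 0.0913 and 0.123), and the VEC call for Ccdc80 and Efemp1 (adjusted p = 0.116 and 0.129). No called result of a named gene was reversed under any alternative run.

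With 3 libraries a group and low input, absence of a call does not show equal levels, and a gene near 0 in a lineage gives no estimate of its step there. At an unadjusted p under 0.05 the difference held for 2605 genes and the shared part for 3000.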

Other observations

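Further called genes came from the lists of lipid mediators, tuft cells and interferon-stimulated genes. Alox5ap, which starts leukotriene synthesis, was at 6.8 to 20 CPM in tomato- VEC with no count in tomato+ VEC, at least 103-fold lower, and at 32.4 to 94.3 CPM in tomato- mTEC against at most 1.27 CPM in tomato+ cTEC. Ptgs2, cyclooxygenase-2, was at 118 to 251 CPM in tomato- mTEC against at most 8.71 CPM in tomato+ cTEC, but only 1 tomato- VEC library, at 21.7 CPM, held it above 1 CPM. Trpm5, a channel of tuft cells, was at 11.9 to 30.7 CPM in tomato- mTEC and at most 0.212 CPM elsewhere. Rsad2, the antiviral protein viperin, was at 237 to 420 CPM in tomato+ VEC against 10.1 to 54 CPM in tomato- VEC, and at 85.9 to 132 CPM in tomato+ cTEC against 9.07 to 66.9 CPM in tomato- mTEC (shared part 2.7, edgeR adjusted p = 0.0141). Ifit3 rose by 1.73 in TEC (edgeR adjusted p = 0.00237) and Gbp2 by 1.99 (adjusted p = 0.00175), both interferon-induced, while their VEC contrasts did not pass (adjusted p = 0.431 and 0.718).

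Of 10 tested genes of the insulin-like growth factor list, the difference passed for Igfbp5 (3.08% of all tested genes) and the shared part for Igfbp3 and Igfbp7 (5.21%). Igfbp5 was at 613 to 2323 CPM in tomato+ cTEC against 268 to 346 CPM in tomato- mTEC, and at 0.445, 13.8 and 123 CPM in tomato- VEC against at most 0.416 CPM in tomato+ VEC. Igfbp7 was at 744 to 1345 CPM in tomato+ VEC against 348 to 664 CPM in tomato- VEC and at 37.7 to 93.2 CPM in tomato+ cTEC against 2.89 to 17.4 CPM in tomato- mTEC, with a shared part of 2.11 (edgeR adjusted p = 0.0134). Rgs5, a pericyte gene, was at 206 to 434 CPM in tomato- mTEC against 8.62 to 65.5 CPM in tomato+ cTEC. Efna1, an ephrin, rose by 1.41 in TEC (edgeR adjusted p = 0.0039) and Tcf7l2, a Wnt effector, by 1.14 (adjusted p = 0.0151), with VEC estimates of 0.04 and -0.28.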
